A study of Rattus norvegicus with 8 samples.

Results

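The 40 genes described here encode plasma proteins that the liver is best known for secreting, together with clotting factors, fibrinolytic enzymes and complement proteins, measured in the cortical kidney of male and female rats. They were taken from a list of gene symbols, and a gene counted as measured when the RefSeq accession of a probe on the array mapped to it. Of the 40 genes, 36 had such a probe, exactly 1 each, out of 14737 genes named this way on the whole array. A probe was tested when 4 or more of the 8 arrays measured it well above background, which held for 31 of the 36. F5, F11, F13b and Proz had no probe of that kind, and Serpind1, F7, F9, Apoa1 and Hpx were measured but too dim to be tested.

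Groups were 4 female and 4 male adult rats of the strain RCCHanTMWIST, a Wistar stock. The labels give no treatment and no age beyond adult. Total RNA of cortical slices, cut after the kidney capsule had been removed and kept overnight in RNAlater, was labelled with Cy3, and each animal was hybridized to an array of its own. In whole tissue such as this, fewer cells of a type and less RNA per cell cannot be told apart.

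Clotting proceeds as a cascade in which each protease cleaves the precursor of the next, from tissue factor and factor VII to factor X, prothrombin and fibrinogen. Serpins such as antithrombin and the protein C pathway restrain it, and plasmin, made from plasminogen by urokinase or tissue plasminogen activator, dissolves the fibrin formed. Most circulating members of the cascade, like albumin and the apolipoproteins, come from hepatocytes, whereas tissue factor, both plasminogen activators, apolipoprotein E and the complement components are also made in many other tissues, and the kidney is a major source of urokinase in urine.

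Values below are log2 signals after subtraction of each array's own 75th percentile, so that 0 is the level of that percentile, and log2 fold-changes are male minus female. Among the 31 tested genes, 11 (35.5%) passed an adjusted p of 0.05 in limma, compared with 8.06% of the 23425 probes tested on the array. Higher in males were 4 of them (F2, F3, Proc and Apoh), against 3.39% of all probes, and higher in females were 7 (Ttr, Serpina10, F10, Fga, Fgb, Fgg and Plau), against 4.67%. A log2 fold-change of 1 or more in size as well, called sex-dependent below, was reached by 7 genes (22.6%), compared with 1.89% of all probes. These were F2, F3 and Apoh, higher in males, against 0.798% of all probes in that direction, and Ttr, Serpina10, Fgb and Fgg, higher in females, against 1.09%. The median log2 fold-change of the 31 genes was 0.02, with 17 above and 14 below 0, and that of all probes tested was −0.04. The median absolute log2 fold-change was 0.36 for the 31 genes and 0.15 for all probes. The genes of the list were chosen with earlier results of these data known. These contrasts with all probes therefore describe the list and are no test of its gene class. Each tested gene was well above background on at least 2 arrays of each sex, but the 4 female arrays alone would have met the filter for Ttr, F10 and Fgg, which were dim in males.

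**Figure D1:**
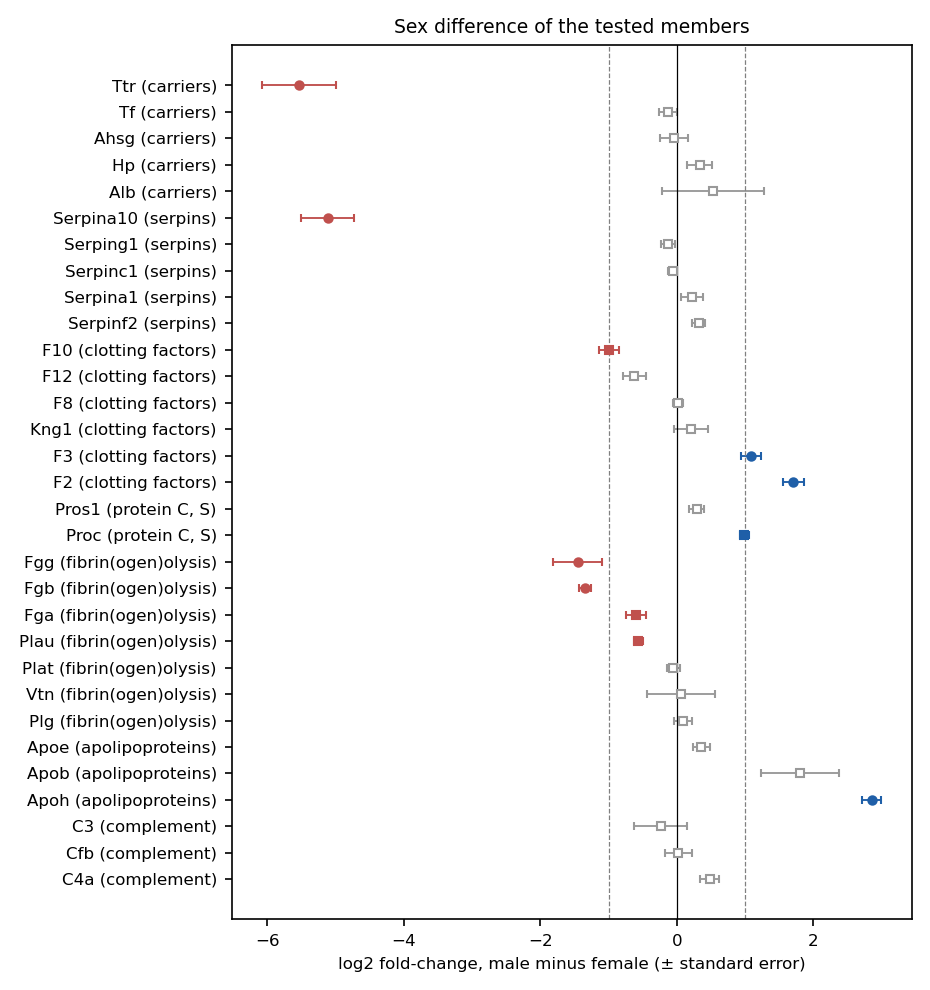
Log2 fold-change, male minus female, of the 31 tested genes, grouped by role, with the standard error of limma as the bar. Filled circles are sex-dependent, filled squares passed the adjusted p alone, open grey squares did not pass, red is higher in females, blue is higher in males, and the dashed lines mark −1 and 1. Ttr (−5.53) and Serpina10 (−5.12) lie farthest to the left and Apoh (2.86) farthest to the right.

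Among the carrier proteins, Ttr fell far below its female level in males, and the other tested carriers did not pass the test. Ttr encodes transthyretin, a carrier of thyroxine and of retinol-binding protein. Its signal was −0.86, −2.21, −1.74 and −2.96 in female rats 1 to 4 and −6.18, −8.20, −7.95 and −7.56 in male rats 1 to 4. Every female lay above every male, and the lowest female was above the highest male by more than 3 log2 units. The log2 fold-change was −5.53 ± 0.54 (SE), a 46.3-fold difference (limma, adjusted p = 0.0013), and Ttr was well above background on 4 of 4 female but on 2 of 4 male arrays, so that the male level is poorly determined.

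Tf encodes transferrin, the iron carrier of plasma. Its signal was 0.40, 0.17, 0.63 and 0.07 in the females and 0.39, 0.19, 0.15 and 0.02 in the males, with overlapping ranges and a log2 fold-change of −0.13 ± 0.14 (adjusted p = 0.60). Hp encodes haptoglobin, which binds free haemoglobin, and ranged from −6.73 to −6.14 in females and from −6.28 to −5.55 in males (adjusted p = 0.29). Ahsg encodes fetuin-A, an inhibitor of calcification, and ranged from −7.68 to −7.03 in females and from −7.83 to −6.99 in males (adjusted p = 0.92). The ranges of all 3 carriers overlapped between the sexes. Alb, the gene of serum albumin, was near background and uneven within both sexes, from −8.02 to −4.79 in females and from −7.55 to −5.37 in males (log2 fold-change 0.53 ± 0.75, adjusted p = 0.70). Hpx encodes the haem carrier hemopexin. It was well above background on 3 male arrays and no female array, which gives only a bound of at least 1.17-fold higher in males for the means, without a test. Male rat 4 (−8.94) lay below every female.

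Of the serpins, a family of protease inhibitors, only Serpina10 passed among the 5 tested. Serpina10 encodes the protein Z-dependent protease inhibitor, which inactivates factor Xa. Its signal was −2.05, −1.01, −2.50 and −2.61 in the females and −7.18, −7.52, −7.55 and −6.37 in the males. The sexes did not overlap, and the log2 fold-change was −5.12 ± 0.39, or 34.7-fold lower in males (adjusted p = 0.00045), with 8 of 8 arrays well above background. Its cofactor protein Z is encoded by Proz, which had no probe here. Normexp background correction reduced the log2 fold-change to −3.76 for Serpina10 and to −3.93 for Ttr, and both kept their call. The male signals of Serpina10 were dim, so that the size of its difference depended on the background correction.

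Serpinc1 encodes antithrombin, the main inhibitor of thrombin. Its signal was 4.44, 4.40, 4.47 and 4.26 in the females and 4.34, 4.41, 4.25 and 4.33 in the males. The sexes overlapped, and the log2 fold-change was −0.06 ± 0.07 (adjusted p = 0.64). Serpinf2 encodes alpha-2-antiplasmin, the inhibitor of plasmin. Its signal was 1.69, 1.58, 1.63 and 1.35 in the females and 1.98, 1.87, 1.74 and 1.92 in the males. Although no male lay below a female, the difference of 0.32 ± 0.09 missed the threshold (adjusted p = 0.077). Serping1 encodes the C1 inhibitor, which restrains complement and contact proteases, and its signal was 2.66, 2.57, 2.68 and 2.26 in the females and 2.41, 2.39, 2.30 and 2.55 in the males (log2 fold-change −0.13 ± 0.11, adjusted p = 0.51). Serpina1, the gene of alpha-1-antitrypsin, ranged from −8.01 to −7.73 in females and from −7.99 to −7.29 in males (adjusted p = 0.44). Serpind1, the gene of heparin cofactor II, was well above background on 0 of 8 arrays.

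**Figure D2:**
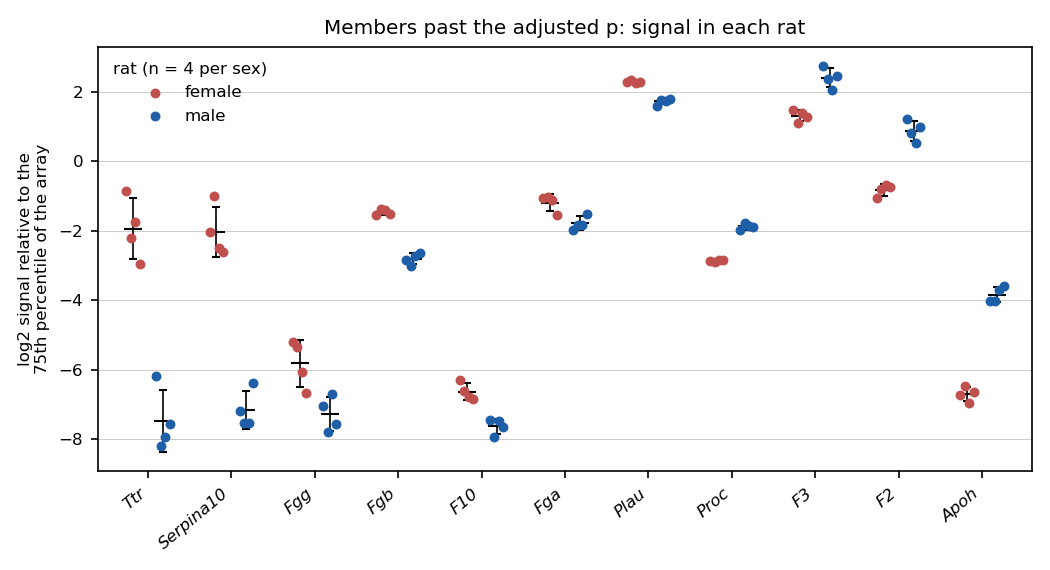
Log2 signal of the 11 genes past the adjusted p in each of 4 female (red) and 4 male (blue) rats, ordered by log2 fold-change, with the mean as a horizontal mark and the SD as the bar. The points of the sexes do not overlap for any gene other than Fga, where female rat 4 (−1.54) lay below male rat 4 (−1.51).

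The clotting factors moved in both directions. F2 and F3 were higher in males, F10 was higher in females, and F8, F12 and Kng1 did not pass. F2 encodes prothrombin, the precursor of thrombin. Its signal was −1.07, −0.81, −0.69 and −0.74 in the females and 1.21, 0.81, 0.52 and 0.98 in the males. All females were below the 75th percentile of their arrays and all males were above it, and the log2 fold-change was 1.70 ± 0.15, a 3.26-fold difference (adjusted p = 0.00088). F3 encodes tissue factor, the membrane protein that starts coagulation by binding factor VII. Its signal was 1.47, 1.10, 1.38 and 1.28 in the females and 2.73, 2.36, 2.05 and 2.46 in the males. Again no male overlapped a female, and the log2 fold-change was 1.09 ± 0.15, or 2.13-fold (adjusted p = 0.0045).

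F10, the gene of factor X, went the other way. Its signal was −6.31, −6.61, −6.79 and −6.85 in the females and −7.46, −7.94, −7.49 and −7.64 in the males. The sexes did not overlap, and the log2 fold-change was −0.99 ± 0.15 (adjusted p = 0.0075), just short of the threshold of 1. Because the probe was dim, well above background on 4 female and 3 male arrays, its size depended on the background correction, with −0.39 under normexp. F7, the gene of factor VII and the direct neighbour of F10 in the rat assembly GRCr8, was well above background on 2 male arrays and no female array and was not tested. The third gene of this cluster is Proz. F9, the gene of factor IX, was well above background on 0 of 8 arrays.

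F12 encodes factor XII, the starting protease of the contact pathway. It ranged from −5.57 to −5.00 in females and from −6.03 to −5.48 in males, with a log2 fold-change of −0.62 ± 0.17 that missed the threshold (adjusted p = 0.061). Without female rat 4 its adjusted p was 0.029 and without male rat 1 it was 0.047. F8, the gene of the factor IXa cofactor VIII, ranged from −3.44 to −3.23 in females and from −3.38 to −3.20 in males (log2 fold-change 0.02 ± 0.08, adjusted p = 0.91). Kng1 encodes kininogen, the precursor of bradykinin, and its rat copies are closely related, so that the signal may not be its own alone. It ranged from −3.42 to −2.63 in females and from −3.53 to −2.61 in males (adjusted p = 0.64).

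In the anticoagulant protein C pathway, Proc was higher in males. Proc encodes protein C, which inactivates factors Va and VIIIa once thrombin has cleaved it. Its signal was −2.87, −2.90, −2.85 and −2.85 in the females and −1.99, −1.77, −1.87 and −1.89 in the males. The SD was 0.03 in females and 0.09 in males, and the log2 fold-change of 0.99 ± 0.07 (adjusted p = 0.00033) was far beyond that spread but just below the threshold of 1. With quantile normalization, it came to 1.01, and Proc was sex-dependent in 3 of 18 alternatives. Pros1 encodes protein S, the cofactor of protein C, and ranged from −4.34 to −3.88 in females and from −3.91 to −3.73 in males (log2 fold-change 0.29 ± 0.10, adjusted p = 0.13).

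All 3 fibrinogen chains fell in males, the beta chain most securely. Fgb encodes the beta chain. Its signal was −1.55, −1.38, −1.40 and −1.52 in the females and −2.85, −3.01, −2.74 and −2.64 in the males. The lowest female was above the highest male by more than 1 log2 unit, and the log2 fold-change was −1.35 ± 0.09, a 2.54-fold difference (adjusted p = 0.00035). Fga encodes the alpha chain. Its signal was −1.07, −1.03, −1.12 and −1.54 in the females and −1.98, −1.82, −1.83 and −1.51 in the males. Female rat 4 and male rat 4 overlapped, and the log2 fold-change was −0.60 ± 0.14 (adjusted p = 0.041). Fgg encodes the gamma chain. Its signal was −5.20, −5.34, −6.07 and −6.68 in the females and −7.05, −7.80, −6.69 and −7.55 in the males. The lowest female (−6.68) lay barely above the highest male (−6.69), and the log2 fold-change was −1.45 ± 0.36, or 2.74-fold (adjusted p = 0.048), with 4 female and 3 male arrays well above background. The calls of Fga and Fgg were near the threshold and were lost with quantile normalization, the authors' log2 values and no filter on dim probes. Normexp gave −0.72 for Fgg, with the adjusted p passed but below the threshold of 1 in size. The call of Fga was also lost without any one of female rats 1 to 3 or male rats 1 to 3, with adjusted p up to 0.10 and log2 fold-changes of −0.71 to −0.53 over all 8 such fits. That of Fgg was lost without any one rat other than female rat 4, with adjusted p up to 0.12 and log2 fold-changes of −1.74 to −1.24. Markers of adipocytes stood high in the 2 females with the highest Fgg signal. The summed level of 6 markers, in units of the 75th percentile, was 0.885 and 0.613 in female rats 1 and 2. It was 0.379 to 0.428 in the other 2 females. Among males it was highest in male rat 4 (0.521, Fgg −7.55) and lowest in male rat 3 (0.361), which had the highest male Fgg signal (−6.69). Summed red-cell markers were also highest among females in rats 1 and 2 (51.0 and 57.1, against 45.6 and 47.2), and were 37.4 to 55.9 in males. No adipocyte or red-cell marker passed the adjusted p, and the part of these cells in the Fgg difference was not tested.

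The 3 fibrinogen genes lie side by side on rat chromosome 2, with Fga directly next to both Fgb and Fgg. The 250 bases before their annotated starts are shown because all 3 were lower in males, although the calls of Fga and Fgg were often lost. Those of F2 and Apoh, which were higher in males, are shown beside them. The sequences are from RefSeq on GRCr8 and run 5′ to 3′ on the strand of the gene, with the start following the last base. Capitals mark letters that match, on either strand, an HNF1 half-site (GTTAATNA), CCAAT or a STAT5-type element (TTCNNNGAA).
Fgg, chr2:170652833-170653082, plus strand: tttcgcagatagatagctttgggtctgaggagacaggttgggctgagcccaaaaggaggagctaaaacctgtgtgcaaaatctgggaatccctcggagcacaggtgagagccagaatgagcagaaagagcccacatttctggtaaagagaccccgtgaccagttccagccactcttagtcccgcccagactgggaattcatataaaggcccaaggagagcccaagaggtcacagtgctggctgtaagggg
Fga, chr2:170671919-170672168, plus strand: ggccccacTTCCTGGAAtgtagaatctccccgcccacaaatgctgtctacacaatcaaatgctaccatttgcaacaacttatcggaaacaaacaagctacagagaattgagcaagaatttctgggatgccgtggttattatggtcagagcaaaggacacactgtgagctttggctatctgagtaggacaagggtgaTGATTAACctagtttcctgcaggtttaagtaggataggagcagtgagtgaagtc
Fgb, chr2:170700876-170701125, minus strand: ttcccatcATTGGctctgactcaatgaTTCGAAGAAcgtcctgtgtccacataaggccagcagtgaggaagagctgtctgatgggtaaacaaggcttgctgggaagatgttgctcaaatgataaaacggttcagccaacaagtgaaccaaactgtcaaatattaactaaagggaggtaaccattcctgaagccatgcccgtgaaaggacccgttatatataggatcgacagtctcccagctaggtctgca
F2, chr3:98065247-98065496, minus strand: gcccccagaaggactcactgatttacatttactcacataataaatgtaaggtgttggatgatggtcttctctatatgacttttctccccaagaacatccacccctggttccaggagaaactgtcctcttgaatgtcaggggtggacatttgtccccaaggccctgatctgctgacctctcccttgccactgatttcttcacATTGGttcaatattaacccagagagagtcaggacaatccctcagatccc
Apoh, chr10:93841742-93841991, plus strand: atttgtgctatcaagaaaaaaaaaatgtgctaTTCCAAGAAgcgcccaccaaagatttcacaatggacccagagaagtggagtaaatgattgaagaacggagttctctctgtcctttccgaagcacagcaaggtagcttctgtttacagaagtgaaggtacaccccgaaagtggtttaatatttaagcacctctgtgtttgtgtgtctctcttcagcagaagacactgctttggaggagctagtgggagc
Fga held an HNF1 half-site, read on the opposite strand as capitals 54 bases before the start, and a TTCNNNGAA match 242 bases before it. Fgb held CCAAT on the opposite strand 242 bases before the start and TTCNNNGAA 223 bases before it, F2 held CCAAT, likewise on the opposite strand, 49 bases before it, Apoh held TTCNNNGAA 218 bases before it, and Fgg held none of these letters. Of 33469 rat promoters of this length, 2.22% held the HNF1 half-site, 34.0% CCAAT and 7.67% TTCNNNGAA. Of the 40 genes, 30 had a promoter in the table, of which 4 (Plg, Fga, F13b and Alb) held the half-site, 8 CCAAT and 6 TTCNNNGAA. The BCL6 elements TTCCTAGAA and TTCCTCGAA, which are also TTCNNNGAA matches, were in 0.376% of all promoters and in 0 of the 30. Promoters of Serpina10 and F3 were not among them. A match of letters is no evidence that a factor binds there.

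Of the fibrinolytic genes, Plau passed, and Plg, Plat and Vtn did not. Plau encodes urokinase. Its signal was 2.27, 2.33, 2.25 and 2.29 in the females and 1.60, 1.76, 1.74 and 1.80 in the males. The sexes were well separated relative to their narrow spread, and the log2 fold-change was −0.56 ± 0.07, or 1.48-fold lower in males (adjusted p = 0.0028). Markers of the thick ascending limb moved the same way: their summed level was 75.5 to 85.5 in females and 63.1 to 69.4 in males, and 2 of the 4 measured, Cldn16 (log2 fold-change −0.62, adjusted p = 0.029) and Egf (−0.38, adjusted p = 0.030), fell in males. This shift was not particular to that segment. The summed podocyte markers were 15.2 to 16.2 in females and 12.9 to 13.5 in males. Those of endothelium were 27.9 to 30.5 in females and 25.5 to 27.8 in males. These ranges nearly met, and no endothelium marker passed the adjusted p. Of all probes tested, 41.6% had a log2 fold-change above 0. The part of thick ascending limb, podocyte or endothelial cells in the Plau difference was not tested.

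Plat encodes tissue plasminogen activator, the other activator of plasminogen. Its signal was 2.44, 2.47, 2.56 and 2.53 in the females and 2.37, 2.41, 2.69 and 2.34 in the males, a log2 fold-change of −0.05 ± 0.09 (adjusted p = 0.78). Plg encodes plasminogen. Its signal was −0.35, −0.52, −0.50 and −0.82 in the females and −0.46, −0.17, −0.49 and −0.70 in the males (log2 fold-change 0.09 ± 0.14, adjusted p = 0.72). For both genes the sexes overlapped, for Plat through male rat 3 alone. Vtn encodes vitronectin, an adhesion protein that stabilizes the plasminogen activator inhibitor, and varied more within each sex than between them, from −6.74 to −5.04 in females and from −7.03 to −5.24 in males (adjusted p = 0.95).

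**Figure D3:**
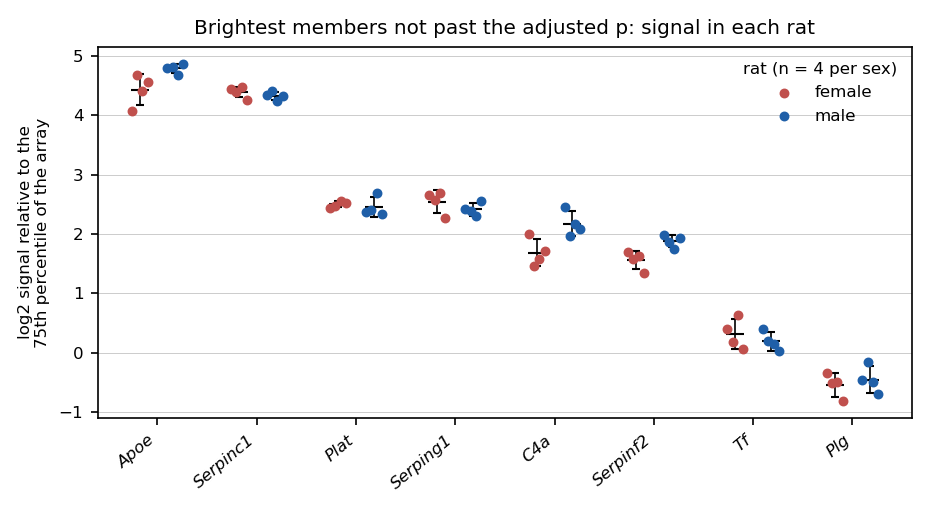
Log2 signal of the 8 genes with the brightest probes among those not past the adjusted p, in each of 4 female (red) and 4 male (blue) rats, with the mean as a horizontal mark and the SD as the bar. The sexes overlap for every gene shown other than Serpinf2, where all males (1.74 to 1.98) lie above all females (1.35 to 1.69).

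Of the apolipoproteins, Apoh showed the largest rise in males among the 31 genes. Apoh encodes beta-2-glycoprotein I, a plasma protein that binds anionic phospholipids. Its signal was −6.73, −6.48, −6.95 and −6.65 in the females and −4.02, −4.04, −3.71 and −3.60 in the males. The gap between the sexes was many times the spread within either, and the log2 fold-change was 2.86 ± 0.14, a 7.25-fold difference (adjusted p = 8.2e-05). Normexp background correction gave 1.79 with the same call.

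Apob encodes apolipoprotein B, the structural protein of low-density lipoprotein. It ranged from −3.99 to −1.18 in females and from −1.44 to −0.33 in males, and its log2 fold-change of 1.81 ± 0.58 missed the threshold (adjusted p = 0.097). Female rat 2 alone overlapped the males, and without it the log2 fold-change was 2.31 with an adjusted p of 0.034. Apoe encodes apolipoprotein E, a ligand of lipoprotein receptors that macrophages and many other cells make. Its signal was 4.07, 4.68, 4.41 and 4.56 in the females and 4.80, 4.82, 4.68 and 4.87 in the males. Female rat 2 reached the lowest male, and the log2 fold-change of 0.36 ± 0.13 did not pass (adjusted p = 0.13). Apoa1, the gene of the main protein of high-density lipoprotein, was well above background on 0 of 8 arrays.

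None of the 3 complement genes passed. C4a encodes complement component C4, cleaved in the classical and lectin pathways. Its signal was 1.996, 1.46, 1.58 and 1.71 in the females and 2.46, 1.97, 2.17 and 2.08 in the males. Female rat 1 overlapped the males, and the log2 fold-change was 0.48 ± 0.14 (adjusted p = 0.078, and 0.0495 without female rat 1). The nearly identical copy C4b had no named probe, and the signal of both cannot be told apart. C3, the central component of all complement pathways, ranged from −2.18 to −0.80 in females and from −2.55 to −1.06 in males (log2 fold-change −0.24 ± 0.38, adjusted p = 0.74). Cfb, the gene of factor B of the alternative pathway, ranged from −2.06 to −1.47 in females and from −2.20 to −1.41 in males (adjusted p = 0.96).

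Gene by gene, the ranges of the sexes did not overlap for 11 of the 31 genes (35.5%), compared with 18.5% of all probes tested. These were the genes past the adjusted p without Fga, and Serpinf2. The list was chosen with earlier results known, so that this share is a description too. For each of them a two-sided exact permutation test gave p = 0.0286, the smallest that 4 against 4 animals allow, and for Fga it gave p = 0.057.

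Other genes of the same pathways were read from 3 further lists with 85 genes, of which 76 had a probe and 65 were tested. Past the adjusted p were 10 of the 65 (15.4%, against 8.06% of all probes), 5 higher in males and 5 higher in females, and 6 of them were sex-dependent (9.23%, against 1.89%). These counts include A2m, which met the filter only through the females. The further lists were also chosen with earlier results known, so that their shares are no test of these pathways. Among the plasma proteins, 5 of 26 passed (19.2%, against 8.06%). Gc, the gene of the vitamin D-binding protein, was at −6.08, −5.65, −5.87 and −6.85 in the females and −1.77, −3.39, −2.12 and −1.63 in the males (log2 fold-change 3.89 ± 0.41, adjusted p = 0.0017). Agt, the gene of angiotensinogen, was at −2.79, −2.32, −3.20 and −3.65 in the females and 0.53, −0.33, 0.22 and 0.10 in the males (3.12 ± 0.29, adjusted p = 0.0010). In both genes the lowest male lay more than 1 log2 unit above the highest female. Azgp1, which encodes zinc-alpha-2-glycoprotein, was lower in males (−1.61 ± 0.30, adjusted p = 0.017, and 0.054 without female rat 2). Apoc3 (0.82 ± 0.10, adjusted p = 0.0029), which inhibits lipoprotein lipase, and Apoa4 (0.95 ± 0.17, adjusted p = 0.016), a further apolipoprotein, were higher in males.

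Among other complement genes, 2 of 21 passed (9.52%), a share near the 8.06% of all probes. Mbl1, a mannose-binding lectin that starts the lectin pathway, was higher in males (log2 fold-change 2.60 ± 0.29, adjusted p = 0.0020), from −3.63 to −2.47 in females and from −0.86 to 0.15 in males. Cd55, decay-accelerating factor, a cell-surface inhibitor of complement, was lower in males (−1.01 ± 0.16, adjusted p = 0.0092), and a further probe gave −1.03 ± 0.11. Among other coagulation genes, 3 of 18 passed (16.7%, against 8.06% of all probes in either direction and 4.67% in that of the 3), all lower in males and A2m among them. A2m, the broad protease inhibitor alpha-2-macroglobulin, was well above background on 4 female and no male array, at least 4.80-fold higher in females. It met the filter through the females alone, where it was high, so that its passing is a description and supports nothing. Its call was lost without the filter, under normexp, where the fitted log2 fold-change was −1.01, and without any one rat other than female rat 4, with adjusted p up to 0.092. A further probe missed the threshold (adjusted p = 0.056). Female rats 1 and 2 were highest for A2m too (−5.17 and −4.74). In the same animals, adipocyte and red-cell markers were highest among the females, and the part of these cells was not tested. S100a10 (−0.50 ± 0.08, adjusted p = 0.010), a subunit of a cell-surface plasminogen receptor, and Anxa5 (−0.38 ± 0.07, adjusted p = 0.016), which binds anionic phospholipids, fell by smaller amounts.

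**Figure D4:**
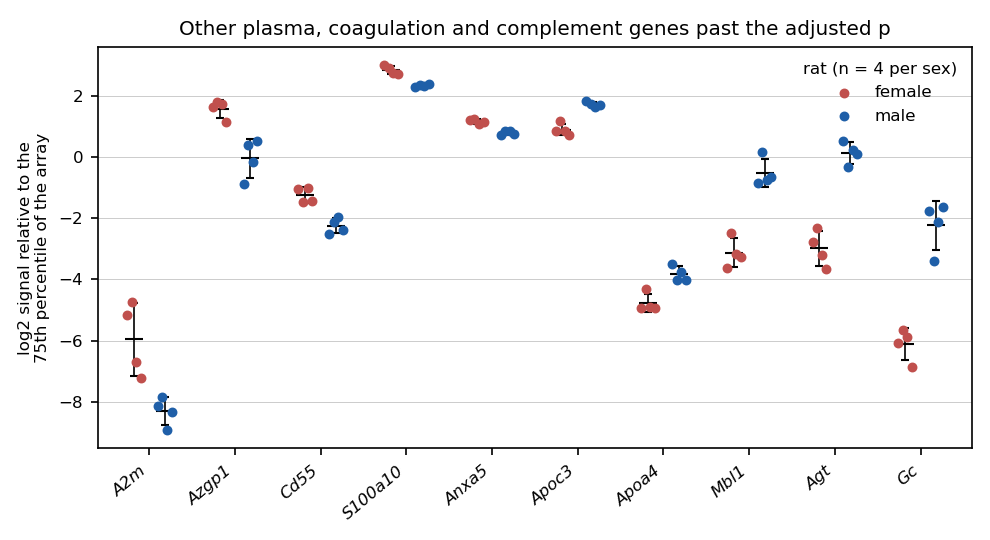
Log2 signal of the 10 genes of the further coagulation, complement and plasma protein lists past the adjusted p, in each of 4 female (red) and 4 male (blue) rats, with the mean as a horizontal mark and the SD as the bar. The sexes do not overlap for any of the 10, Gc (log2 fold-change 3.89) is farthest apart, and A2m was not well above background in any male.

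Because these genes are typical of the liver, hepatocyte markers were read in the same slices. Of 11 markers with a probe, Cps1, Tat, Cyp7a1, Slco1b2 and Hal, which serve the urea cycle, amino acid breakdown, bile acid synthesis and hepatic uptake, were well above background on 0 of 8 arrays. Tdo2 and Cyp8b1 were well above background on 4 arrays each, with signals near the limit of detection. Cyp2e1 and Arg1, which the kidney also expresses, were well above background on 8 of 8 without passing the test (adjusted p = 0.69 and 0.071). Slc27a5 was well above background on 7 arrays and differed widely between animals of either sex. The bile salt export pump gene Abcb11 was well above background on 4 male and no female array, at least 2.23-fold higher in males, and met the filter through the males alone. The summed level of the 11 markers was 18.4 to 21.3 in females and 17.2 to 21.6 in males, in units of the 75th percentile, and was mostly Cyp2e1. The part of hepatocyte RNA in the differences above was not tested beyond these values.

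**Figure D5:**
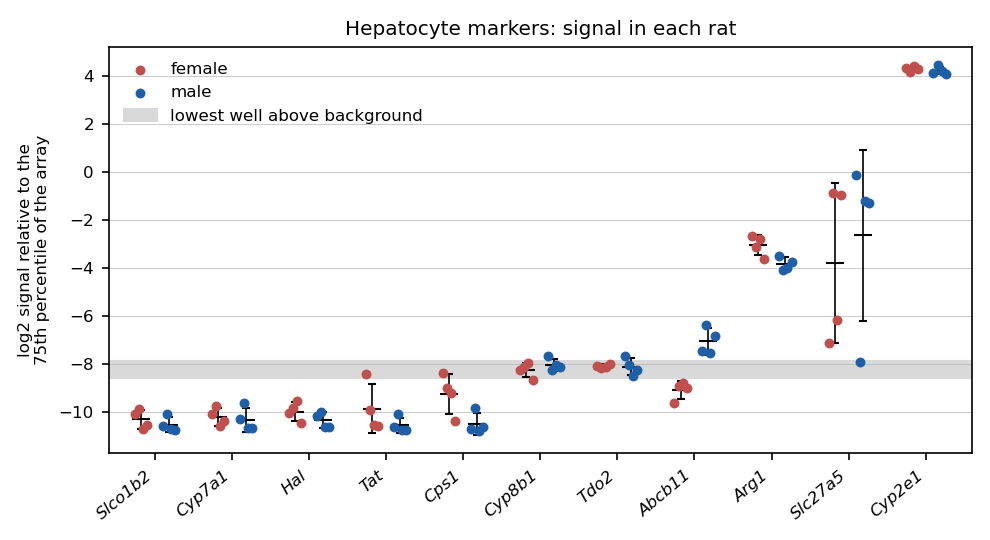
Log2 signal of 11 hepatocyte marker genes in each of 4 female (red) and 4 male (blue) rats, with the mean as a horizontal mark and the SD as the bar. The grey band spans the lowest signal well above background on the 8 arrays (−8.60 to −7.88), and Slco1b2, Cyp7a1, Hal, Tat and Cps1 were well above background on no array.

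The tissue label was borne out by its markers: all 10 proximal tubule markers were well above background on 8 of 8 arrays, with summed levels of 271 to 295 in females and 273 to 290 in males. Of these, Cubn (log2 fold-change −0.59, adjusted p = 0.0045) fell and Slc22a6 (0.38, adjusted p = 0.015) rose in males. The podocyte markers Podxl (log2 fold-change −0.27, adjusted p = 0.035) and Ptpro (−0.34, adjusted p = 0.039) fell in males. No marker of endothelium, leukocytes, fibroblasts, adipocytes, red cells or adrenal cortex passed. On the 8 arrays, 73.8% to 79.1% of probes were well above background, the 75th percentile lay between 5025 and 6547 intensity units, and 0 spots were saturated. All arrays were on 1 slide, with each sex in both of its rows.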

How the data were processed

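RNA of cortical kidney slices of 4 female and 4 male rats was measured on 8 one-colour Agilent rat arrays. The authors deposited the intensity of each spot from Feature Extraction 10.7.3.1, background-subtracted and spatially detrended but not normalized between arrays, per the file headers. They also deposited log2 values with the same distribution on every array. The submitters' processing notes name limma 3.8.2.

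Here, control spots and outlier spots were left out, log2 of the intensity minus the 75th percentile of the array was taken, and spots of a probe were averaged. A probe was well above background on an array when most of its spots were marked so, and 23425 of 30367 probes reached this on at least 4 arrays. Each was fitted in limma 3.58.1 (R 4.3.3, lmFit and eBayes) as male minus female, without covariates, with Benjamini-Hochberg adjustment over all 23425. Sex-dependent probes had an adjusted p under 0.05 and differed by 1 log2 unit or more. Lower bounds were set against the lowest signal well above background on each array, or the probe's own signal where higher. Tested on simulated arrays, the fit recovered 191 of 200 probes changed by 2 log2 units (95.5%), with 1 false call. The noise was drawn independently for each probe, and smaller changes were not simulated. The share recovered therefore does not cover genes with smaller differences.

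Probes were named through their RefSeq accession, and the brightest probe was used where a gene had several. The 40 genes and all further lists were chosen with earlier results of these data known. Some results of the marker lists are not reported here. Values in every rat are given for genes past the adjusted p and for the 8 brightest others. The number of animals, 4 per sex, limits the precision. Replicate numbers were not taken as pairs. Deviations of same-numbered males and females correlated at −0.01 to 0.13. The best-matching male had the same number for female rats 1 and 4, but not for female rats 2 and 3. These values had no reference to be set against and do not settle whether the numbers pair animals. Alternatives were quantile normalization, the authors' log2 values, normexp (offset 50) on the median spot signal, no filter, a filter on all 8 arrays, outlier spots kept, array weights, a trended and robust prior variance, blocks for replicate number and slide row, and leaving out each rat. Values within each slide row were added after seeing the data.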

Additional observations from a re-analysis of the deposited data

Results flagged for a closer look

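In 3 of 74 groups of 4 rats compared (37 genes in 2 sexes), 1 rat lay far from the others of its sex by Dixon's criterion, where chance gives about 1 in 20, or 3.7. Alb was at −4.79 in female rat 1 and at −8.02 to −7.66 in the other females. Kng1 was at −3.53 in male rat 4 and at −2.73 to −2.61 in the other males. Vtn was at −5.04 in female rat 3 and at −6.74 to −6.64 in the other females. None of these genes passed the adjusted p.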

How the results depend on the processing

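Of 11 genes past the adjusted p, Serpina10, F2, F3, Proc, Fgb, Plau and Apoh passed under all 18 alternatives fitted to the 8 arrays or to 7 of them, and Ttr and F10 under all 17 that included them. The filter on all 8 arrays leaves out Ttr, F10 and Fgg, so that 4 genes past the adjusted p and 2 sex-dependent genes were higher in females there. Fga passed in 7 of 18 and Fgg in 6 of 17. With all 8 arrays, Serpinf2 and C4a passed with an intensity trend, C4a with the replicate block, F12 with normexp and Apoe with the authors' log2 values. Leaving out each rat gave 9 to 12 genes past the adjusted p and 6 to 8 sex-dependent genes. The replicate number as a block, which was not taken to pair the animals, gave 10 genes past the adjusted p and 6 sex-dependent. With it, 6 instead of 10 of the further pathway genes passed the adjusted p. Of the further genes, 1 instead of 3 was sex-dependent and higher in females under normexp, and 1 to 3 when each rat was left out, 1 without female rats 1, 2 or 3 or male rats 1 or 4. The cause of these shifts was not tested.

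Genes that did not pass changed sign around 0. With quantile normalization and the authors' log2 values, Ahsg was at 0.097 and 0.091 and Serpinc1 at 0.012 and 0.017. With normexp, Serpina1 was at −0.032 and Vtn at −0.029, and with array weights F8 was at −0.0060, Vtn at −0.20 and Cfb at −0.018. Leaving out each rat gave −0.18 to 0.13 for Ahsg, −0.019 to 0.053 for F8, −0.0041 to 0.18 for Plg, −0.26 to 0.48 for Vtn, −0.52 to 0.054 for C3 and −0.090 to 0.17 for Cfb. Within slide row 1 (2 against 2), Ahsg was at 0.12, Serping1 at 0.0095, F8 at −0.031 and Vtn at −0.59, and within row 2 Alb was at −0.56, Plat at 0.091 and C3 at 0.31. All 11 genes past the adjusted p kept their direction in both rows, with Ttr at −4.52 and −6.55, Serpina10 at −4.22 and −6.01, and Fgg at −0.93 and −1.98. The mean of several probes gave no other value, since each of the 36 genes had 1 probe. Dim signals limit Ttr, F10 and Fgg in males, and the size of the difference for Serpina10.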

Other observations

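Some genes of the lists differed more between animals than between the sexes. Slc27a5, a gene of the hepatocyte list, was at −7.14 and −6.16 in female rats 1 and 3 and at −7.94 in male rat 2. It lay between −1.30 and −0.14 in the other 5 rats, without a difference between the sexes past the adjusted p (0.78). C3 had an SD of 0.63 in both sexes, Vtn of 0.84 in females and 0.80 in males, and Alb of 1.51 and 0.90. These values were not explained further here.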
